A study of Saccharomyces cerevisiae with 22 samples.

Results

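The genes described here encode the proteins of the cytosolic ribosome of budding yeast. They were taken as every gene of the R64 annotation whose symbol starts with RPL or RPS followed by a digit, which gave 132 of 6002 protein-coding genes. Of these, 76 encode proteins of the large subunit (RPL) and 56 of the small subunit (RPS). They include 57 pairs of duplicated genes, whose copies are marked A and B, and 18 genes without a second copy. What was measured at each gene is the number of Ty5 insertion sites within 1 kb upstream of its start codon. The joined upstream windows covered 129172 bp, or 1.07% of the genome.

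Making ribosomes takes a large part of a growing yeast cell's transcription, and their protein genes are transcribed together under the essential factor Rap1 and its partners Fhl1, Ifh1, Sfp1 and Hmo1. Most of these promoters are strongly active in rich medium, are depleted of nucleosomes and are shut down together under starvation. Ty5 is a yeast retrotransposon whose integrase binds Sir4, a silencing protein. In the calling-card assay a transcription factor carries part of Sir4 as a fusion, and the Ty5 insertions that gather near the factor's binding places are then read out by sequencing.

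The 22 libraries were made from yeast deleted for SIR4, so that the fusion is the source of Sir4 sequence. The plasmid group has 3 libraries, each of a diploid overexpressing a Gal4-Sir4, Leu3-Sir4 or Gcn4-Sir4 fusion from a plasmid. The multiplex group has 16 libraries of 8 barcoded fusions (Gal4, Kar4, Lee1, Rgm1, Rpi1, Sef1, Sfg1 and Yrm1), each present in 2 pools that are biological replicates, in the same diploid. The Thi2 group has 2 libraries of a MATa haploid (his3Δ1 leu2Δ0 ura3Δ0 met15Δ0 sir4::KanMX trp1::Hyg) that carries THI2::sir4 at the native locus, from complete medium or from medium without thiamine. The control is 1 library of the Sir4-free diploid, MATa/MATα, homozygous for his3Δ1, leu2Δ0, ura3Δ0, sir4::KanMX and trp1::Hyg and heterozygous at MET15 and LYS2, the strain that the plasmid and multiplex libraries share. The labels do not give which libraries were grown in glucose and which in galactose. The plasmid, Thi2 and Sir4-free libraries have no replicates.

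Each distinct insertion, defined by its chromosome, position and direction, was counted once however many reads it had, and a share is the percentage of a library's sites. The libraries held 4755 to 79573 sites, the Sir4-free library most, so a gene with no site in a library could still hold up to 0.00377% to 0.0631% of its sites (3 counts). Brackets give 95% exact intervals, which cover counting error only. As a check of the Gal4 labels, its target GAL1 held 1.36% of sites with the Gal4 plasmid and 3.79% and 3.85% in the Gal4 multiplex libraries, against 0.0214% without Sir4. GAL1 also held 0 to 52 sites in the other 14 multiplex libraries, at most 0.249%. Whether these sites come from the Gal4 cells of the same pools was not tested. The reading frame of the deleted SIR4 held at most 5 sites in any library. The data lie about 20 bp from the R64 annotation, and 380 bp from it on chromosome 11 beyond 150 kb. Only the displacement on chromosome 11 beyond 150 kb was allowed for. The offset of about 20 bp elsewhere was left in, so distances from start codons carry it.

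Without Sir4, Ty5 entered the upstream regions of ribosomal protein genes more densely than those of all genes. The 132 windows held 2032 of 79573 sites, or 2.55% [2.45 to 2.67], which is 15.7 sites per kb. All gene windows held 11.6 sites per kb and the genome as a whole 6.60. The median gene of the ribosome had 13 sites, from 3 to 72, against a median of 9 over all genes, from 0 to 108. The large-subunit genes had a median of 13 sites and the small-subunit genes 14. No gene of the set was without a site. For comparison, the 43 genes of the mitochondrial ribosome had a median of 7 sites in the Sir4-free library, the 5 genes of the ribosomal stalk 13, 16 translation factor genes 17, 22 ribosome assembly genes 7 and 14 genes of regulators 11. These differences between gene sets were not tested.

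The sites were spread unevenly over the genes. RPL15B, for a large-subunit protein, held most in the Sir4-free library with 72 sites, or 0.0905% of the library. RPS4A followed with 62, RPS3 with 58, RPL18B with 53, RPL31B with 46, RPS20 with 41, RPS26B with 36 and RPL38 with 34. RPS9A, RPL26A and RPS18A had 32 each. The 10 fullest genes held 22.5% of the sites of the set. Rps3 and Rps20 sit in the head of the small subunit, and Rps9 takes part in decoding accuracy. RPL15B, RPS4A, RPS3, RPL18B and RPL16A had a site in all 22 libraries. The mean share over the libraries was highest for RPL15B (0.125%), RPS4A (0.0995%), RPS3 (0.0648%), RPL18B (0.0645%) and RPL31B (0.0440%). Among the lowest were RPL20A (0.00247%), RPL5 (0.00254%), RPS27A (0.00312%) and RPL16B (0.00370%). RPL20A and RPL5 had a site in only 7 libraries. The Rpl5 protein carries a small ribosomal RNA into the large subunit.

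The copies of duplicated genes encode the same or nearly the same protein, but in some pairs their upstream regions held unlike numbers of untargeted sites. Over the 57 pairs the fuller copy held a median of 1.75 times the sites of the other in the Sir4-free library. This ratio cannot fall below 1, and counting error alone raises it above 1. What counting error would give was not worked out, so the median is a description only. The ratio was over 2 in 20 pairs and over 3 in 10. RPL24B had 21 and RPL24A had 4. RPL15B had 72 and RPL15A had 14, RPS4A had 62 and RPS4B had 14, and RPL31B had 46 and RPL31A had 10. Whether reads could match the upstream regions of both copies was not checked, since no genome sequence was used.

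Around the start codon the untargeted sites of ribosomal protein genes had 2 maxima, where those of other genes had 1. Counts below are sites per 100 genes per 50 bp in the Sir4-free library. The ribosomal protein genes had 155 between 100 and 51 bp upstream of the start codon, and the 5870 other genes 88.7. Next came a dip, in which the ribosomal protein genes had 71.2 at 250 to 201 bp upstream, where the other genes had 101. A second maximum followed at 500 to 451 bp, with 111 at the ribosomal protein genes and 61.4 at the other genes. Inside the reading frames both sets had few sites, with 2.73 per kb of reading frame in the ribosomal protein genes and 3.15 per kb over all genes.

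**Figure D1:**
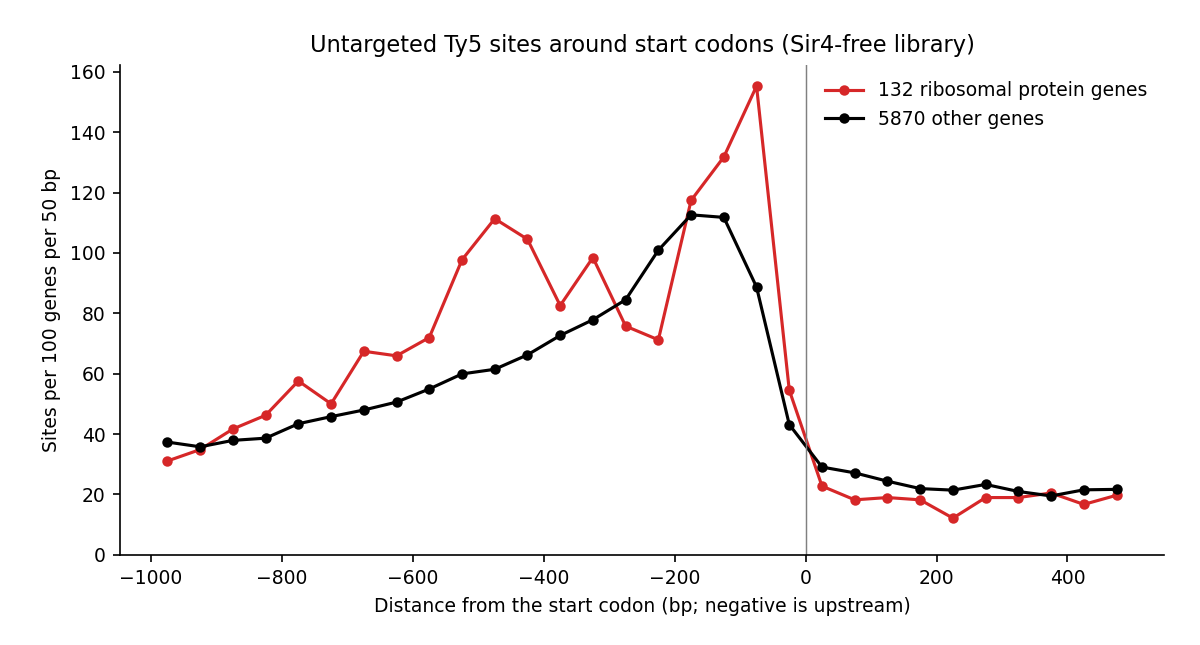
Sites of the Sir4-free library per 100 genes in steps of 50 bp against the distance from the start codon, for the 132 ribosomal protein genes (red) and the 5870 other genes (black). The red line peaks at 155 near the start codon, drops to 71.2 and rises to 111 farther upstream, while the black line has a single broad maximum of 113.

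The dip was found in nearly every library. The edges of the stretches used here and below were chosen after the profile was seen, so the shares in them are a description and no test. Of the sites in the 1-kb windows, those 201 to 300 bp upstream of the start codon made up 9.38% [8.15 to 10.7] at the ribosomal protein genes and 14.6% [14.3 to 14.8] at the other genes without Sir4. In 20 of the 22 libraries this share was lower at the ribosomal protein genes, with a median of 9.38% over libraries (4.23% to 15.0%) against 14.6% (11.2% to 16.8%) at the other genes. The exceptions were the Gal4 plasmid library and Gal4 multiplex replicate 1. The share was likewise low at the 76 ribosomal protein genes with no neighbouring gene starting the other way within the window, 9.03% [7.42 to 10.9] in the Sir4-free library. The libraries share the genome and the restriction enzymes, so they do not measure the shape of this region independently, and the difference between gene sets was not tested.

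The stretch nearest the start codon also varied between libraries, from 11.7% to 33.3% of the window sites of the ribosomal protein genes. At the other genes it ran from 13.4% to 28.0%. The lowest share was that of the Gal4 plasmid library, with 11.7% [6.71 to 18.6]. At the ribosomal protein genes the first 200 bp held 16.9% [13.96 to 20.2] of window sites in the Thi2 library from complete medium and 18.7% [13.3 to 25.1] in that from medium without thiamine. They held 28.6% [26.3 to 30.8] and 26.9% [23.4 to 30.6] in the Sfg1 multiplex libraries and 29.3% [27.3 to 31.3] without Sir4. At the other genes the same stretch held 25.5% and 24.3% in the Thi2 libraries and 28.0% without Sir4. Farther upstream, at 301 to 600 bp, the Thi2 haploids had more sites: the ribosomal protein genes had 44.2% and 46.2% of window sites there, against 36.2% without Sir4. Gcn4 had 17.4% in the first 200 bp at the ribosomal protein genes and 22.1% at the other genes. The Thi2 strain differs from the Sir4-free strain in ploidy, in its alleles at MET15 and LYS2, in the fusion at the native locus and perhaps in medium, and these cannot be told apart.

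**Figure D2:**
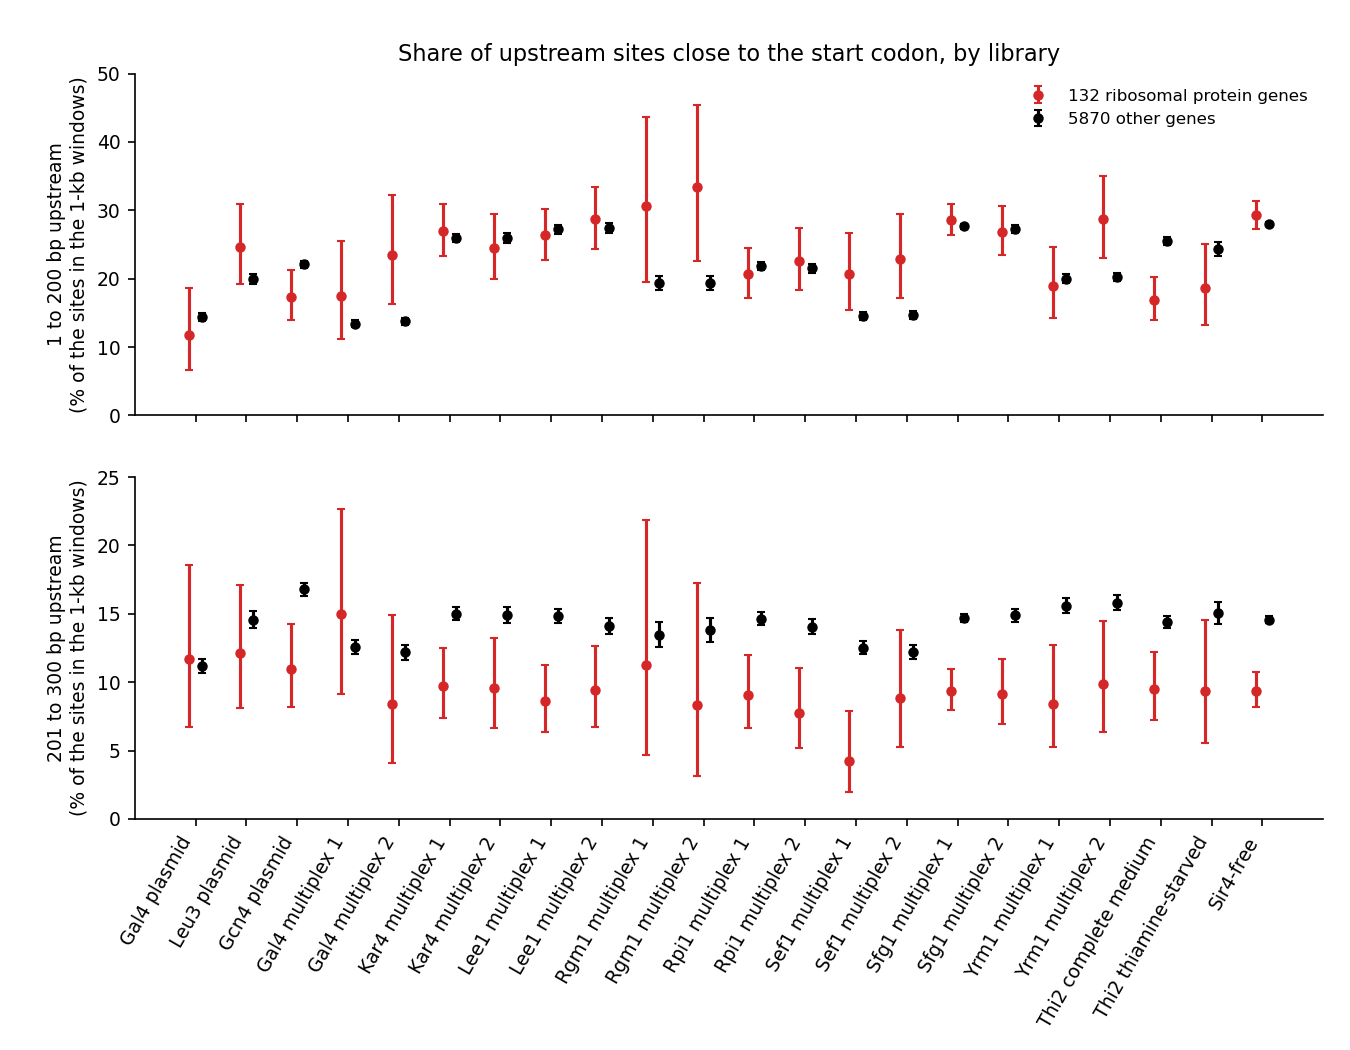
Share of the sites in the 1-kb upstream windows that lie 1 to 200 bp (top) or 201 to 300 bp (bottom) from the start codon, for each library, at the 132 ribosomal protein genes (red) and 5870 other genes (black), with 95% exact intervals. In the lower panel the red points lie below the black ones in 20 of 22 libraries, and in the upper panel the red points run from 11.7% for the Gal4 plasmid to 33.3%, with Thi2 at 16.9% and 18.7%.

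Close to the start codon the insertions at ribosomal protein genes also had a preferred direction. Without Sir4, 56.4% [54.2 to 58.6] of the window sites at these genes were listed in the direction of the gene, against 50.3% [49.9 to 50.6] over all genes. The excess was largest near the start codon, where 61.7% [57.7 to 65.6] of sites at 1 to 200 bp and 66.5% [59.4 to 73.1] at 201 to 300 bp had the gene's direction. The other genes had 52.4% and 48.3% in these stretches. At 301 to 600 bp the ribosomal protein genes had 49.9% [46.2 to 53.5], and in the rest of the window 55.9% [51.5 to 60.2]. The difference from the other genes was not tested. Within 300 bp of the start codon 77 ribosomal protein genes had more sites in their own direction, 25 had more in the other and 30 had equal numbers. Sfg1 multiplex replicate 1 had 61.1% [56.4 to 65.6] and 65.5% [57.3 to 73.2] in the nearest 2 stretches, and replicate 2 had 63.6% [55.8 to 71.0] and 58.9% [45.0 to 71.9]. Thi2 in complete medium had 55.1% [44.7 to 65.2] and 54.5% [40.6 to 68.0], whose intervals span 50%. Over the whole window the share was 47.7% [43.0 to 52.5] with Gcn4 and 48.9% [41.4 to 56.4] with starved Thi2. The labels do not say how the deposited direction was assigned, so it may be the direction of the element or of the read.

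The share of all sites that fell upstream of ribosomal protein genes differed strongly between the fusions. It was lowest with Gal4, at 0.941% [0.785 to 1.12] in the plasmid library and 0.726% and 0.843% in the multiplex replicates (0.784% ± 0.0824, SD, n = 2), and highest with Lee1, at 2.93% and 2.67%. Sfg1 had 2.82% and 2.74%, Rpi1 2.67% and 2.38% and Kar4 2.39% and 2.11%. Yrm1 had 1.61% and 1.56%, Sef1 1.41% and 1.31% and Rgm1 1.26% and 1.46%. Leu3 had 2.04% [1.78 to 2.32], Gcn4 1.83% [1.66 to 2.00], Thi2 2.07% [1.90 to 2.24] in complete medium and 1.94% [1.67 to 2.24] without thiamine. The control had 2.55%. For Gal4, Rgm1, Sef1 and Yrm1 both replicates lay below the control and below every replicate of the other multiplex fusions.

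**Figure D3:**
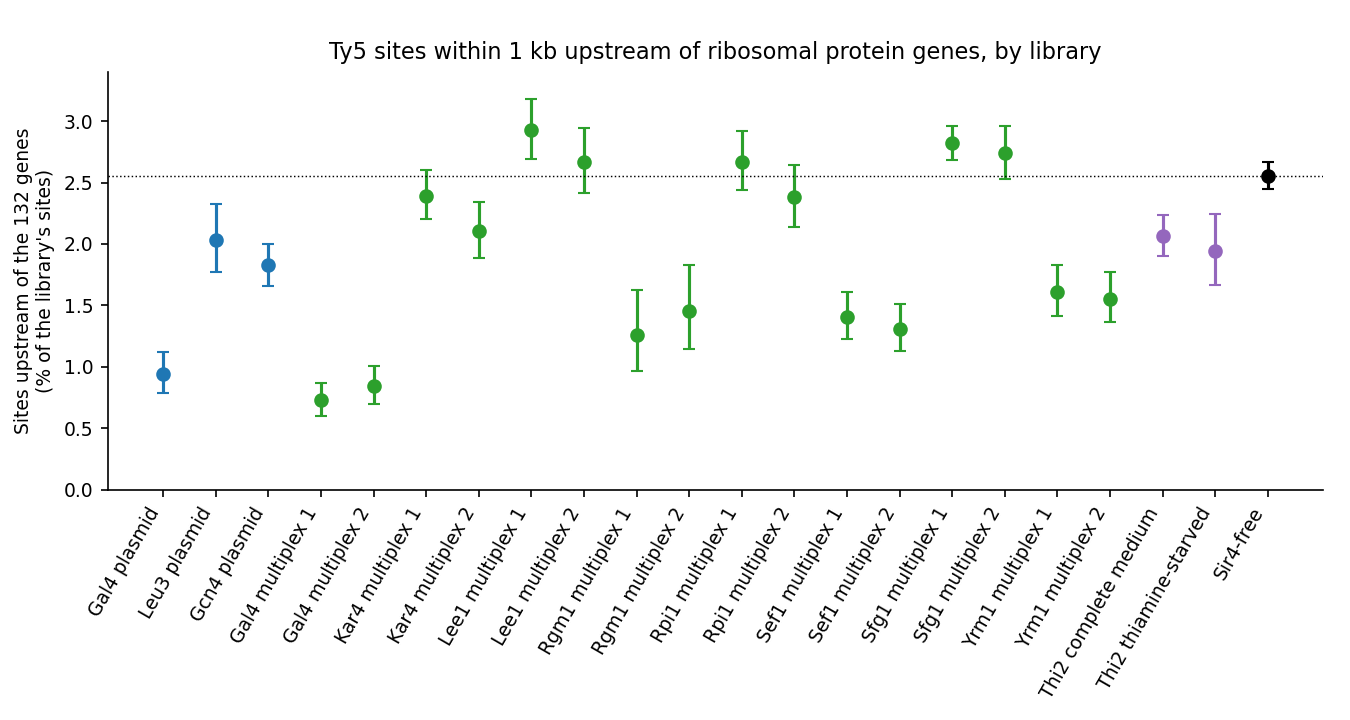
Percentage of each library's sites that lie within 1 kb upstream of the 132 ribosomal protein genes, with 95% exact intervals (counting error only); blue marks plasmid, green multiplex, purple Thi2 libraries and black the Sir4-free library, whose 2.55% is drawn as a dotted line. The Gal4 libraries lie lowest, at 0.726% to 0.941%.

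Set against the Sir4-free library, the summed share, with replicates pooled, was 0.305-fold [0.266 to 0.350] for Gal4 in the multiplex and 0.369-fold [0.305 to 0.442] for Gal4 on the plasmid. The ratio was 0.532 for Sef1, 0.533 for Rgm1, 0.620 for Yrm1, 0.715 for Gcn4, 0.760 and 0.809 for starved and complete-medium Thi2, 0.797 for Leu3 and 0.892 for Kar4, each interval below 1. Rpi1 had a ratio of 0.995 [0.916 to 1.08], and Sfg1 1.09 [1.03 to 1.16] and Lee1 1.10 [1.02 to 1.19] were slightly above 1. The pooled intervals leave out the spread between replicates. For 3 fusions 1 replicate taken alone had an interval spanning 1. These were Kar4 replicate 1 (0.938 [0.852 to 1.03]), Lee1 replicate 2 (1.05 [0.936 to 1.16]) and Sfg1 replicate 2 (1.07 [0.978 to 1.17]). The other replicate of each did not span 1. The fusions also differed in how many of their sites lay in 1-kb bins called higher than in the control (Fisher's exact test), some of which overlap the ribosomal protein gene windows. These bins took 74.8% of the sites of Gal4 in the multiplex, 58.7% of Gal4 on the plasmid, 53.5% of Sef1, 52.6% of Yrm1, 40.9% of Rgm1 and 35.05% of Leu3. They took 28.0% of Rpi1, 22.4% of Gcn4, 21.9% of Kar4, 4.75% and 0.707% of starved and complete-medium Thi2, 0.572% of Sfg1 and 0.144% of Lee1. In the multiplex, Gal4, Sef1, Rgm1 and Yrm1 had the lowest ratios and the largest shares in such bins. Both Thi2 libraries had ratios below 1 with small shares in them. Whether these bins account for the ratios was not tested. The ratio was also taken with those bins left out of both libraries, a choice made after the data were seen. The bins were picked on the same sites, and leaving them out lowers the total of the fusion more than that of the control, so these ratios are a description and no test. The ratio was then 0.948 [0.813 to 1.10] for Gal4 in the multiplex, 1.06 [0.953 to 1.19] for Sef1, 1.14 [1.02 to 1.27] for Yrm1, 0.875 [0.728 to 1.04] for Rgm1 and 1.09 [0.939 to 1.26] for Leu3. It was 0.702 [0.570 to 0.856] for Gal4 on the plasmid, 0.886 [0.797 to 0.983] for Gcn4, 0.814 [0.741 to 0.893] for Thi2 in complete medium and 0.795 [0.678 to 0.927] without thiamine.

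Single genes were then compared, each fusion against the Sir4-free library, over all gene windows. Few ribosomal protein genes stood out. The 6 that were called higher were so with 1 fusion each, RPL9A with Gal4 on the plasmid and in the multiplex. Multiplex values come from edgeR's quasi-likelihood test with Benjamini-Hochberg adjustment over 5530 windows, in which the lone Sir4-free library is assumed to vary like the multiplex ones. For single libraries a two-sided exact test of Fisher was used, which compares libraries and not conditions. The threshold was an adjusted p of 0.05. The comparisons share the 1 control library.

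Rpi1, a regulator linked to cell wall genes, raised the counts upstream of RPL15B and RPS4A, the 2 ribosomal protein genes that were fullest in the Sir4-free library too. RPL15B held 56 and 62 sites in the Rpi1 multiplex replicates, shares of 0.311% and 0.430%, against 72 sites and 0.0905% in the Sir4-free library. Both replicates lay above all other libraries, the nearest of which was Rgm1 replicate 2 with 12 sites and 0.243%. The log2 fold against the control was 2.05 ± 0.29 (SE, adjusted p 2.94e-10), where the median of all windows was -0.43. RPS4A held 53 and 52 sites, 0.294% and 0.361%, against 62 and 0.0779% in the Sir4-free library, a log2 fold of 2.09 ± 0.30 (adjusted p 2.48e-10). In the other 20 libraries RPS4A had at most 0.125%. These were the 2 of 132 genes called higher and none was lower, against 1.75% of all windows called higher and 0.0723% lower.

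The sites of Rpi1 lay in a narrow part of these regions. Upstream of RPL15B, 45 of 56 and 52 of 62 sites were 251 to 750 bp from the start codon, and 26 and 24 of them at 501 to 750 bp. The 72 control sites were spread, with 22, 22 and 20 in the 3 steps of 250 bp nearest the start codon. Upstream of RPS4A, 36 and 31 sites lay at 501 to 750 bp and none within 250 bp, against 16 and 5 in the Sir4-free library. With a window of 500 bp RPS4A was no longer called (adjusted p 0.745; 6.8e-13 to 0.745 over its alternatives). The region upstream of RPL15B is shared with NCW1, a cell wall protein gene that starts in the other direction. That of RPS4A is shared with the uncharacterized YJR146W, and HMS2, a gene linked to filamentous growth, starts beyond it. Which gene a site belongs to cannot be told from its position.

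Kar4, a factor of the mating response, raised RPL18B. This gene held 48 and 25 sites in the Kar4 replicates, 0.208% and 0.160%, against 53 sites and 0.0666% in the Sir4-free library. Both values were above those of all other libraries, Rpi1 coming next with 0.150% and 0.111%. The log2 fold was 1.61 ± 0.31 (adjusted p 2.68e-05), and RPL18B was the only 1 of 132 genes called, against 1.57% of all windows called higher and 0.108% lower. The call was lost without Kar4 replicate 1 (adjusted p 0.0837) and with a window of 500 bp (adjusted p 0.503), the adjusted p running from 5.93e-08 to 0.503 over all alternatives. Of the Kar4 sites 25 and 11 lay 501 to 750 bp upstream of RPL18B, against 13 in the Sir4-free library. TOS6, a cell wall protein gene, starts beyond the window in the other direction.

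With Yrm1, a zinc-finger factor of multidrug resistance, RPL7B was called higher and RPL18B lower. RPL7B held 19 and 20 sites with Yrm1, 0.131% and 0.135%, against 30 sites and 0.0377% in the Sir4-free library. The next highest library was Lee1 replicate 1 with 16 sites and 0.0870%. The log2 fold was 2.03 ± 0.41 (adjusted p 4.01e-05; median of all windows -1.03). Of these RPL7B sites 18 and 16 lay 251 to 500 bp upstream, a stretch in which YPL199C starts in the other direction. RPL18B held 2 sites and 1 site with Yrm1, 0.0138% and 0.00673%, against 0.0666% in the Sir4-free library, a log2 fold of -2.41 ± 0.71 (adjusted p 0.0204). RPL9B held 0 sites in both replicates, against 25 in the Sir4-free library, at least 3.07-fold lower with the floor of 3 counts over both replicates (adjusted p 0.0268). In all, 1 gene was called higher and 2 lower of 132, against 3.45% and 1.14% of all windows. Both lower calls were lost when either Yrm1 replicate was left out, and that of RPL9B also with the pool number as a replicate block (adjusted p 0.0837; 0.0241 to 0.382 over its alternatives). With the block 2 genes were higher and 1 lower. The rise of RPL7B was lost with at least 5 reads per site (adjusted p 0.133; at least 2.74e-06 over its alternatives).

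Gal4 had sites at the far edge of the RPL9A window. RPL9A, for a large-subunit protein, held 10 and 14 sites in the Gal4 multiplex replicates and 9 with the Gal4 plasmid, against 10 in the far deeper Sir4-free library. Its shares were 0.0621%, 0.101% and 0.0672%, against 0.0126% in the control, and all 3 Gal4 libraries lay above the other 19. The log2 fold was 3.12 ± 0.58 in the multiplex (adjusted p 3.99e-06; median of all windows -2.53). On the plasmid the ratio was 5.35 [1.92 to 14.7] (Fisher's exact test, adjusted p 0.0199). Nearly all of these RPL9A sites, 10, 13 and 9, lay 751 to 1000 bp upstream, and 12, 16 and 23 more lay just outside the window at 1001 to 1250 bp. With a window of 500 bp the direction turned, to log2 folds of -1.49 in the multiplex and -1.82 on the plasmid. The neighbour upstream is RRT6, in the same direction.

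RPS0A and RPS21B held 0 sites with Gal4 in the multiplex, against 30 and 28 in the Sir4-free library, at least 3.77-fold and 3.52-fold lower (floor of 3 counts over both replicates; adjusted p 0.0179 and 0.0273). RPS20 held 0 sites and 1 site against 41 in the control, a log2 fold of -3.29 ± 1.01 (adjusted p 0.0288). Most windows were lower with Gal4 too: the median log2 fold of all windows was -2.53, and the summed share of the set was 0.305-fold. The calls of RPS0A, RPS21B and RPS20 were lost when either Gal4 replicate was left out. Of 132 genes 1 was called higher and 3 lower with Gal4 in the multiplex, against 3.29% and 1.16% of all windows. With the Gal4 plasmid 1 of 129 genes tested was higher and 1 lower, against 3.02% and 0.326% of all windows. The lower one, RPL31B, had 0 sites with the Gal4 plasmid and 46 in the Sir4-free library, at least 2.58-fold lower (3 counts in the plasmid library; adjusted p 0.0374, lost with at least 5 reads per site or a window of 500 bp). With this plasmid the median log2 fold of all windows was -1.13, and the summed share of the set was 0.369-fold.

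Leu3, which governs leucine synthesis, raised RPL8B. The gene held 15 of 10662 sites with Leu3, 0.141%, against 14 of 79573 and 0.0176% in the Sir4-free library, a ratio of 8.0 [3.60 to 17.9] (Fisher's exact test, adjusted p 1.08e-05). All other libraries had at most 0.0405%. Of the RPL8B sites 13 lay 501 to 750 bp upstream, and 30 more lay outside the window at 1001 to 1250 bp, nearer to FPS1, a glycerol channel gene that starts in the other direction. Within 500 bp the log2 fold was -1.01. RPL8B was 1 of 129 genes tested, against 2.59% of all windows called higher and 0.0404% lower.

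**Figure D4:**
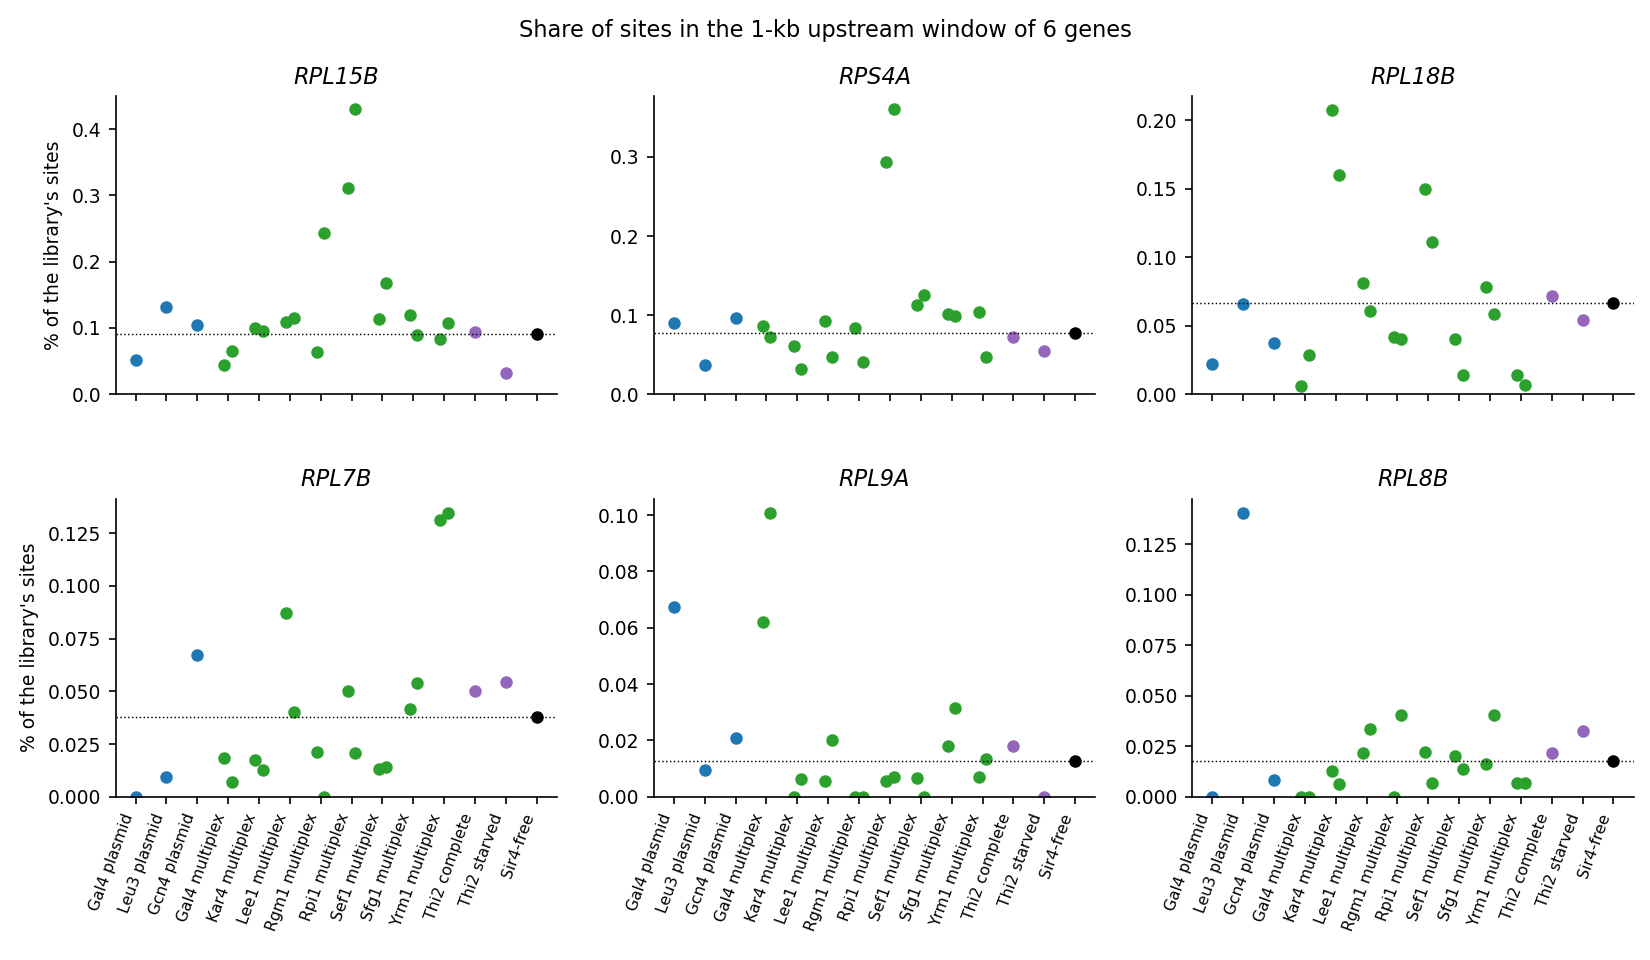
Percentage of each library's sites in the 1-kb window upstream of 6 ribosomal protein genes, 1 point per library (multiplex replicates side by side), with the Sir4-free value at the right and as a dotted line. RPL15B and RPS4A are highest in both Rpi1 libraries, RPL18B in Kar4, RPL7B in Yrm1, RPL9A in the 3 Gal4 libraries and RPL8B in Leu3.

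**Figure D5:**
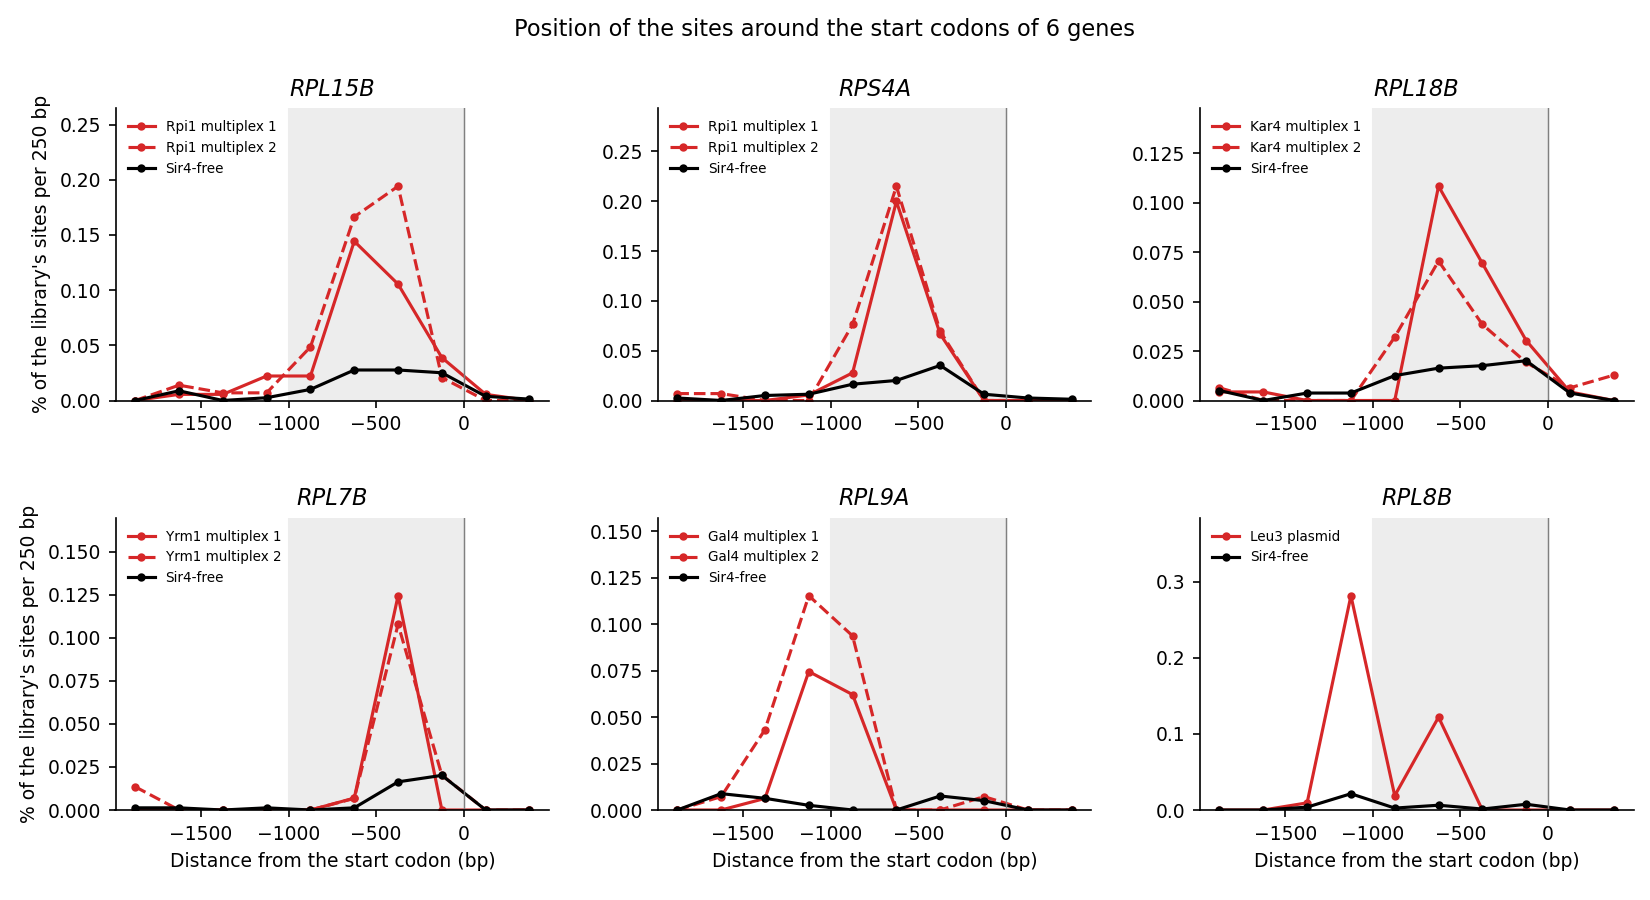
Sites per 250 bp, as a percentage of each library's sites, against distance from the start codon, for the fusion that raised the gene (red, solid and dashed for replicates) and for the Sir4-free library (black); the 1-kb window is shaded. The red peaks lie inside the window for RPL15B, RPS4A, RPL18B and RPL7B, and at or beyond its far edge for RPL9A and RPL8B.

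The median log2 fold of the tested ribosomal protein genes against the Sir4-free library lay near that of all windows for most fusions. It was -2.43 for Gal4 in the multiplex, -1.34 for Gal4 on the plasmid, -1.07 for Yrm1, -0.41 for Rpi1 and -0.20 for Kar4, where all windows had -2.53, -1.13, -1.03, -0.43 and -0.24. It stood lower than all windows for Gcn4 (-0.69, all windows -0.23) and Thi2 in complete medium (-0.36, all windows -0.07), and higher for Leu3 (-0.18, all windows -0.47). These medians carry no test.

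The other fusions gave no call at a ribosomal protein gene against the Sir4-free library. With Gcn4, the activator of amino acid synthesis, 0 of 129 genes were called by Fisher's exact test, against 2.97% of all windows called higher and 0.252% lower, and 3 were higher and 10 lower at an unadjusted p under 0.05. Of all 5159 windows tested with Gcn4, 454 passed unadjusted, both directions together. RPS20 came nearest, with 26 sites and 0.109% with Gcn4 against 41 sites and 0.0515% in the Sir4-free library, a ratio of 2.12 [1.24 to 3.55] (adjusted p 0.0914). With Thi2 in complete medium 0 of 131 genes were called (1 higher and 6 lower unadjusted), against 0.0% of all windows higher and 0.0375% lower. With starved Thi2 0 of 129 were called (2 higher and 0 lower unadjusted), against 0.48% and 0.02%. Of all windows, 393 of 5339 passed unadjusted in complete medium and 244 of 5003 in the starved library, both directions together. Between the starved and the complete-medium Thi2 library 0 of 66 genes tested were called and 0 had an unadjusted p under 0.05, against 0.312% of all windows higher and 0.0% lower. Unadjusted, 143 of 2561 windows passed between them. These 2 libraries held 9171 and 27883 sites, and the other 66 genes of the set had too few to be tested.

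In the multiplex, Lee1, Rgm1, Sef1 and Sfg1 had 0 of 132 genes called by edgeR and 0 by DESeq2. The libraries differed in depth. The Rgm1 replicates held 4755 and 4946 sites, with a median of 0 per ribosomal protein gene. Those of Sfg1 held 54987 and 22233, with medians of 9 and 3. The absence of calls therefore says less for Rgm1 than for Sfg1. At an unadjusted p under 0.05 edgeR had 0 higher and 4 lower for Lee1, 1 and 24 for Rgm1, 2 and 21 for Sef1 and 1 and 0 for Sfg1. Of all 5530 windows 198 passed this for Lee1, 605 for Rgm1, 856 for Sef1 and 176 for Sfg1, both directions together. At an adjusted p under 0.05, 0.0% of all windows were higher and 0.0362% lower for Lee1, and 1.36% and 0.108% for Rgm1. For Sef1 these shares were 3.42% and 0.47%, and for Sfg1 0.0% and 0.0181%. With RLE factors in place of TMM 6 genes were called for Sef1, all lower, and the share of all windows in that fit is not given here. RPL15B in Rgm1 had 3 and 12 sites, 0.0631% and 0.243%, and its replicates lay on both sides of the control's 0.0905%.

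Each multiplex fusion was also set against the mean of the other 7, without the control, over 4993 windows, of which 130 belong to ribosomal protein genes (edgeR's quasi-likelihood test, Benjamini-Hochberg adjustment). Log2 folds here are relative to the other fusions, and the median of all windows ran from -1.55 for Gal4 to 1.13 for Sfg1. The multiplex genes called higher above passed here too: RPL15B for Rpi1 (1.76 ± 0.22, adjusted p 5.95e-14), RPS4A for Rpi1 (2.02 ± 0.23, adjusted p 5.34e-16), RPL18B for Kar4 (2.33 ± 0.29, adjusted p 9.17e-14), RPL7B for Yrm1 (2.76 ± 0.39, adjusted p 5.19e-11) and RPL9A for Gal4 (4.28 ± 0.59, adjusted p 1.39e-11). RPL18B was lower for Yrm1 here too (-2.19 ± 0.70, adjusted p 0.0302). The libraries of each fusion are the same as above and only the reference differs, so these calls add no independent support.

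Further genes passed in this comparison and did not pass against the Sir4-free library. For Rpi1 6 of 130 were higher, against 3.73% of all windows (0 lower, against 0.481%): beside RPL15B and RPS4A these were RPL18B with 27 and 16 sites (1.62 ± 0.34), RPS23A with 9 and 3 (3.18 ± 0.80), RPL27A with 4 and 5 (3.66 ± 0.97) and RPS21B with 10 and 5 (2.04 ± 0.61). These 4 calls did not hold when 1 of the Rpi1 replicates was left out, replicate 2 for RPL27A, replicate 1 for RPL18B and RPS23A and either for RPS21B. Rps23 lies at the decoding centre of the small subunit. With the replicate block RPL18B was higher with Rpi1 against the Sir4-free library too (adjusted p 0.0145; 0.0145 to 0.800 over its alternatives). For Yrm1 4 were higher and 1 lower, against 5.23% and 0.701%. RPS9A had 15 and 10 sites with Yrm1 (2.56 ± 0.51), RPS0A 10 and 8 (2.49 ± 0.58) and RPL41A 4 and 11 (1.82 ± 0.54). RPS0A was lost without Yrm1 replicate 1 and RPL41A without replicate 2. With the replicate block RPS9A was also higher against the Sir4-free library (adjusted p 0.0112; 0.0112 to 0.629 over its alternatives). The RPS9A sites of Yrm1 were concentrated, with 14 of 15 and 10 of 10 lying 501 to 750 bp upstream, towards MOT1, which starts in the other direction.

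For Kar4 4 were higher, against 4.39% (0 lower, against 1.12%), namely RPL18B, RPL4B with 5 and 3 sites, RPS14A with 10 and 4, and RPS28B with 5 and 6. Only RPL18B was left when either Kar4 replicate was left out, and RPS28B was also lost with the replicate block (adjusted p 0.0548; 0.0266 to 0.475 over its alternatives). For Gal4 2 were higher, against 3.67% (0 lower, against 0.421%), RPL9A and RPS3. RPS3 had 15 and 12 sites with Gal4 (1.28 ± 0.38), and 17 and 15 more lay outside its window at 1001 to 1250 bp. The RPS3 call was lost when either Gal4 replicate was left out. For Lee1 RPS14B was the 1 gene called, with 11 and 2 sites, against 0.521% higher and 0.841% lower. Without Lee1 replicate 1 it was lost. For Rgm1 (1.9% higher, 0.841% lower) and Sef1 (4.77% higher, 0.02% lower) 0 were called by edgeR, with 0 higher and 8 lower for Rgm1 and 4 higher and 2 lower for Sef1 at an unadjusted p under 0.05, while DESeq2 called 2 lower for Rgm1 and 1 higher for Sef1. Of all 4993 windows 462 for Rgm1 and 456 for Sef1 passed unadjusted by edgeR, both directions together. Both Rgm1 libraries had a median of 0 sites per ribosomal protein gene.

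Sfg1, a regulator of pseudohyphal and superficial growth, had 21 of 130 genes higher than the other fusions and 0 lower, against 10.6% and 1.42% of all windows. They include RPL14A (2.85 ± 0.73), RPL40B (1.83 ± 0.49), RPS25A (2.57 ± 0.69), RPS25B (1.95 ± 0.51) and RPL31A (3.17 ± 0.90), with a median log2 fold of 1.33 over the 130 genes and 1.13 over all windows. DESeq2 called 0 of them, and 1 or 2 were left without Sfg1 replicate 1 or 2. Against the Sir4-free library the median over the genes was -0.02, and -0.03 over all windows. The Sfg1 libraries were the deepest of their pools, with 54987 and 22233 sites. Whether the number of calls follows from this depth was not tested.

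The share of RPL15B over the 8 fusion means ran most closely with that of RPS4A (Pearson's r 0.935), RPL27A (0.813) and RPS23A (0.780), all 8 means coming from the same pools. The Rpi1 mean is the highest point for each of these genes, and these values are a description only.

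Genes that work with the ribosome were looked at in the same fits, in which at most 3.45% of all windows were called higher and 1.16% lower with any fusion, so that counts of 0 to 2 in such short lists say little. Against the Sir4-free library, 0 of 5 stalk protein genes (RPP0, RPP1A, RPP1B, RPP2A and RPP2B) and 0 of 22 ribosome assembly genes were called with any fusion. Among 14 regulators UTP22, whose product joins ribosomal RNA processing to the Ifh1 complex, was higher with Gal4, with 26 and 15 sites in the multiplex and 29 on the plasmid, against 15 in the control (log2 folds 3.32 and 3.5, adjusted p 1.5e-10 by edgeR and 5.42e-13 by Fisher's exact test). HMO1, for a protein that binds many of these promoters, was higher with Gal4 in the multiplex, with 13 and 3 sites against 11 (2.40, adjusted p 0.00527). GCR1 was lower with Yrm1, with 1 site in each replicate against 44 (-2.70, adjusted p 0.0269). Among 16 translation factors HYP2, which encodes the factor eIF5A, was higher with Rpi1 (40 and 32 sites against 60; 1.59, adjusted p 6.27e-05), Yrm1 (24 and 25; 1.37, adjusted p 0.00317) and Gal4 in the multiplex (20 and 21; 1.36, adjusted p 0.00742), and YEF3 was lower with Gal4, with 0 sites in both replicates against 32 (adjusted p 0.0123). Of the 43 mitochondrial ribosomal protein genes MRPL6 was higher with Yrm1, with 6 and 8 sites against 5 (3.04, adjusted p 0.00834), and MRPS8 with Leu3, with 4 sites against 1 (4.48, Fisher's exact test, adjusted p 0.0352).

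Against the other 7 multiplex fusions, the stalk gene RPP1B was higher with Sfg1, and the assembly genes RLP24 with Sef1, BUD21 with Sfg1 and Yrm1, and NHP2 and CBF5 with Sfg1. Of the regulators UTP22 and HMO1 were higher with Gal4, REB1 with Kar4 and GCR1 with Rpi1 and Sfg1. Of the translation factors HYP2 was higher with Rpi1 and Yrm1 and lower with Kar4, EFB1 higher with Rpi1, SUP35 higher with Sfg1 and YEF3 lower with Gal4. Of the mitochondrial ribosomal protein genes MRPL10 was higher with Kar4, MRPL8 with Sfg1 and MRPL6 and MRPL9 with Yrm1. In these fits 10.6% of all windows were higher with Sfg1, 5.23% with Yrm1, 4.77% with Sef1, 4.39% with Kar4, 3.73% with Rpi1 and 3.67% with Gal4. Lower were 1.12% with Kar4 and 0.421% with Gal4. So few calls in such short lists say little. Against the Sir4-free library the median log2 fold with Gal4 in the multiplex was -1.67 over the stalk genes, -3.63 over the assembly genes, -1.22 over the regulators, -1.20 over the translation factors and -3.36 over the mitochondrial ribosomal protein genes, and -2.53 over all windows. With Rpi1 these medians were -0.74, -0.89, -0.11, -0.01 and -0.54, and -0.43 over all windows.

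The individual insertions were largely unlike between libraries. The 22 libraries held 9594 sites upstream of ribosomal protein genes at 7853 distinct positions and directions, of which 84.9% were seen in 1 library and 36 in 5 or more, the most being 9. The median site had 5 reads, and 23.4% had a single read.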

How the data were processed

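Genomic DNA of colonies with a Ty5 insertion was cut in separate aliquots with 3 restriction enzymes (Hinp1I, HpaII and TaqI), self-ligated, amplified by inverse PCR and sequenced on an Illumina GAII, per the labels' protocols. The deposited files hold the authors' raw counts of reads per chromosome, position and direction, per the labels. No aligner, genome build or filter is given in the sources used. The Sir4-free file lists 4540 repeated rows, which were merged. Distinct sites were counted in windows of 1 kb upstream of 6002 start codons (R64, displaced on chromosome 11 beyond 150 kb).

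For comparisons of single libraries Fisher's exact test was used, two-sided (at least 5 sites in the 2 libraries together), with log2 folds after adding 0.5 site. The multiplex libraries were fitted in edgeR 4.0.16 (R 4.3.3, limma 3.58.1; TMM, quasi-likelihood, at least 10 sites), alone or with the Sir4-free library (17 libraries). The biological coefficient of variation was 0.0916 and 0.0944, with 8 residual degrees of freedom. P values were adjusted by Benjamini-Hochberg over all windows (0.05). DESeq2 1.42.0 was an alternative, with a window of 500 bp, at least 5 reads per site, other factors, no minimum of sites, no displacement and each replicate left out. Sites were counted and tested with scipy 1.17.1, numpy 2.4.6 and pandas 2.3.3 in Python 3.11.15 and plotted with matplotlib 3.10.9.

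Replicate numbers are the pool numbers of the labels. Deviations of libraries from 1 pool correlated with a median r of 0.0669 over 28 pairs of fusions (-0.0451 to 0.198, 11 above 0.1). Replicate counts over the ribosomal protein genes differed by a chi-square of 0.837 to 1.07 per degree of freedom, near the 1 that sampling gives, and no pair stood apart from the others. Both kinds of test were tested on simulated data.

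The genes and lists were chosen with earlier results of these data known. Named genes are, per comparison and direction, up to 10 called with the smallest p and up to 3 uncalled with most sites, and in the Sir4-free library the 10 with most sites. A genome or promoter sequence was not used here. No sequence is printed.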

Additional observations from a re-analysis of the deposited data

Results flagged for a closer look

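RPL18B was called higher with 1 fusion and lower with another relative to the same control, and the difference between the 2 fusions was itself tested. It held 48 and 25 sites with Kar4 (0.208% and 0.160% of the libraries) and 2 sites and 1 site with Yrm1 (0.0138% and 0.00673%). The log2 fold of Kar4 over Yrm1 was 3.96 ± 0.59 (SE, edgeR's quasi-likelihood test, adjusted p 1.69e-09 over 4993 windows), with both Kar4 replicates above both Yrm1 replicates. Over 10 other settings the fold ran from 3.55 to 4.51 and the adjusted p from 2.55e-10 to 6.38e-05. This contrast was chosen after the data were seen, because RPL18B had been called with both fusions on these same libraries, so its small p adds no independent support. Of the 4993 windows 127 were called higher and 188 lower with Kar4 than with Yrm1. Against the Sir4-free library the Kar4 call was lost without Kar4 replicate 1 or with a window of 500 bp. The Yrm1 call was lost when either Yrm1 replicate was left out. Most windows were lower with Yrm1 too. The median log2 fold of all windows against the Sir4-free library was -1.03 with Yrm1 and -0.24 with Kar4. How much of the fall at RPL18B is particular to this gene was not tested.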

How the results depend on the processing

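A window of 500 bp turned the direction of RPL9A for Gal4 (log2 -1.49 in the multiplex and -1.82 on the plasmid against the Sir4-free library), RPL8B for Leu3 (-1.01), RPS3 for Gal4 against the other fusions (-0.64), RPS9A for Yrm1 (-5.22 against Sir4-free, -2.99 against the others), RPL43B for Yrm1 (-2.80) and RPS4A for Kar4 (0.75, from -0.95, uncalled). The smaller window leaves out the sites at its far part. It left 0 called genes for Gal4 on the plasmid, Leu3, Kar4 and Gal4 multiplex against Sir4-free and Gal4 against the others, 1 for Rpi1 against Sir4-free and 3 for Yrm1 against the others. With at least 5 reads per site 0 were called for Gal4 on the plasmid, Yrm1 against Sir4-free and Lee1 against the others, 1 for Gal4 and 1 for Kar4 against the others, 2 for Yrm1 against the others, 2 for Gal4 against Sir4-free and 10 for Sfg1. DESeq2 called 1 for Kar4, 0 for Lee1, 2 for Rgm1, 3 for Rpi1, 1 for Sef1 and 0 for Sfg1 against the others, and 2 for Gal4 and 1 for Yrm1 against Sir4-free. RLE factors gave 3 for Lee1 against the others and 6 for Sef1 against Sir4-free. The causes of the changes other than those of the window were not tested.

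With 1 replicate left out, against the other fusions, the counts were 1 to 1 for Gal4 and Kar4, 0 to 1 for Lee1, 0 to 0 for Rgm1 and Sef1, 3 to 4 for Rpi1, 1 to 2 for Sfg1 and 3 to 4 for Yrm1. Against Sir4-free they were 1 to 2 for Gal4, 0 to 1 for Kar4, 0 to 0 for Lee1, Rgm1, Sef1 and Sfg1, 2 to 2 for Rpi1 and 1 to 1 for Yrm1. The replicate block, with the pools paired by their number in the labels, gave 21 called genes for Sfg1 against the others, as without it, and moved no total of called genes by over 1.5 times, but for Yrm1 against Sir4-free it gave 2 higher and 1 lower, where the fit without it gave 1 higher and 2 lower. Beside the calls given above it moved those of RPL24B and RPS11B (lost) and RPL11B and RPL31B (gained) for Sfg1 against the others, and no other call among the named genes.

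The summed share over that of Sir4-free moved beyond its error with a 500-bp window to 0.227 (Gal4 plasmid), 0.226 (Gal4 multiplex), 0.879 (Rpi1), 0.436 (Sef1), 1.06 (Sfg1) and 0.563 (Yrm1). With at least 5 reads per site it was 0.295 (Gal4 plasmid), 0.217 (Gal4 multiplex), 0.987 (Kar4), 1.20 (Lee1), 1.12 (Sfg1) and 0.526 (Yrm1). Outside higher bins, an alternative added after seeing the data, it was 0.702 (Gal4 plasmid), 0.886 (Gcn4), 0.948 (Gal4 multiplex) and 0.875 (Rgm1), and it passed to the other side of 1 for Leu3 (1.09), Kar4 (1.05), Sef1 (1.06) and Yrm1 (1.14), and for Rpi1 (1.03, from 0.995, both intervals spanning 1). Without 1 replicate it ran from 0.284 to 0.330 for Gal4, 0.825 to 0.938 for Kar4, 1.05 to 1.15 for Lee1, 0.494 to 0.570 for Rgm1, 0.932 to 1.05 for Rpi1, 0.513 to 0.551 for Sef1, 1.07 to 1.10 for Sfg1 and 0.609 to 0.630 for Yrm1. Depth limits drops: the median gene had 13 sites in the deepest library.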
